A study of Homo sapiens with 12 samples.

Results

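The comparison described here set tumours of mice treated with an EZH2 inhibitor alone (EZH2i, 3 libraries) against tumours of mice given vehicle (control, 3 libraries). These are 6 of the 12 samples of a study whose title concerns EZH2 phosphorylation, p38 signalling and breast cancer progression. They were chosen by the columns of the deposited count table that the sample descriptions name for the 2 treatments, and all 12831 genes that passed an expression filter, of 25369 symbols in the table, were compared. Every tumour grew from MDA-MB-231, an established human line of triple-negative breast cancer, injected in 50 µl of Matrigel into a mammary fat pad, with 10 mice per group. Intraperitoneal treatment on 5 days a week began once tumours measured 100 mm3. EZH2i mice received EPZ-6438 (tazemetostat, whose code the labels also write as EPZ-6428) at 10 mg/kg/day. The combination mice received that compound and SB202190, an inhibitor of p38 MAP kinases, and the p38i mice received SB202190 alone at 1 mg/kg/day. Control mice received 4% DMSO, 30% PEG300 and 5% Tween 80. The mouse strain and the duration of treatment are not given in the sources used here. Whether each library came from a mouse of its own is not given either, so p-values measure the spread between the samples used. For the tests of genes, that spread was also estimated from the combination and p38i libraries.

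EZH2 is the catalytic subunit of Polycomb repressive complex 2 (PRC2), which methylates lysine 27 of histone H3 and so keeps developmental and lineage genes silent. EED and SUZ12 are its core partners, and EZH1 is a related enzyme that can take the place of EZH2. EPZ-6438 competes with the methyl donor at the active site and leaves the EZH2 protein in place, so EZH2 mRNA is no check of its action. The histone mark itself is not among the values analysed here.

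The 6 libraries held between 2208771 counts (EZH2i 6-1) and 4360021 counts (control 2-1). In CPM (counts per unit of TMM-scaled library size), 1 count was worth between 0.238 and 0.44 over the 6 libraries. Marker genes expressed by MDA-MB-231 took 1.02% to 1.15% of the counts in EZH2i libraries and 0.954% to 1.09% in controls. Marker genes listed as absent from this line took 0.00772% to 0.00869% in EZH2i libraries. In controls 1-1, 1-3 and 2-1 they took 0.0206%, 0.0149% and 0.00837%, and the part of this difference in the results was not tested. A principal component analysis used only the genes that varied most among the 6 libraries. On the component that held 46.5% of the variance of those genes, the EZH2i libraries scored -4.36 (5-3), -21.3 (5-4) and -12.7 (6-1). Control 1-1 scored 31.7 and control 1-3 scored 14, while control 2-1, at -7.46, lay within the range of the EZH2i libraries. MALAT1, a nuclear long non-coding RNA, took 2.71%, 1.47% and 2.82% of the counts in EZH2i libraries 5-3, 5-4 and 6-1, against 3.88%, 3.72% and 3.12% in controls 1-1, 1-3 and 2-1. All 3 EZH2i libraries were below all 3 controls (2.33% ± 0.75 against 3.57% ± 0.402, SD, n = 3 each, two-sided exact permutation p = 0.1, the smallest that 3 against 3 allows). Its part in the results below was not tested.

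A small set of genes passed the test. At an adjusted p under 0.05, 36 genes differed between EZH2i and control tumours, 0.281% of those tested. Of these, 17 were higher in EZH2i tumours (0.132%) and 19 were lower (0.148%). The heat shock protein genes HSPH1, HSPA1A and DNAJB1, the chemokine receptor gene CXCR4 and the gelatinase gene MMP2 were among the higher genes. The collagen-binding integrin gene ITGA10, the glucocorticoid receptor co-chaperone gene FKBP5 and the galectin gene LGALS9 were among the lower ones. In bulk tumours, fewer cells of a type and less RNA per cell cannot be told apart.

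Each of the 36 genes had its 3 EZH2i libraries all above or all below the 3 controls. Over all genes tested, 1083 (8.44%) had the EZH2i libraries above the controls and 1009 (7.86%) had them below, and the median log2 fold change was 0.02. The adjusted p of the 36 genes ran from 0.003314 to 0.04997, and 27 of them were above 0.04. The count moved by more than 1.5 times when any 1 library of the fit was left out. It was 60 without EZH2i 5-3, 2 without EZH2i 5-4 and 11 without EZH2i 6-1, and 4, 3 and 144 without controls 1-1, 1-3 and 2-1. Leaving out a library that serves only to estimate the spread gave 10, 5 and 6 without combination 8-1, 9-1 and 9-2, and 7 without either p38i column. ITGA10 and HSPH1 stayed past the threshold in all 11 of these fits. FKBP5 did so in 10, missing it without EZH2i 5-4 (adjusted p = 0.123), FAM155A and CSRP2 in 8 and METTL7A in 5. The other 30 genes did so in 0 to 4 of the 11, while no gene changed direction in any of them.

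**Figure D1:**
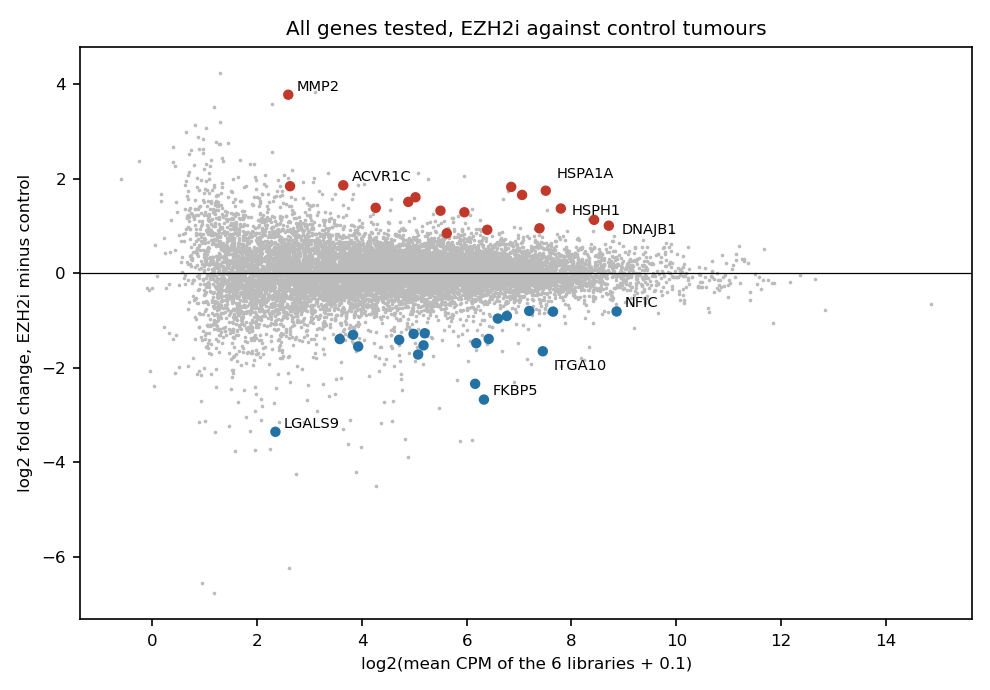
Each point is 1 of the 12831 genes tested, with the log2 of its mean CPM plus 0.1 over the 6 libraries across and its log2 fold change, EZH2i minus control, up. Red points mark the 17 genes past the threshold and higher in EZH2i tumours, and blue points the 19 that were lower. Grey genes with larger changes lie mostly at low CPM.

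**Figure D2:**
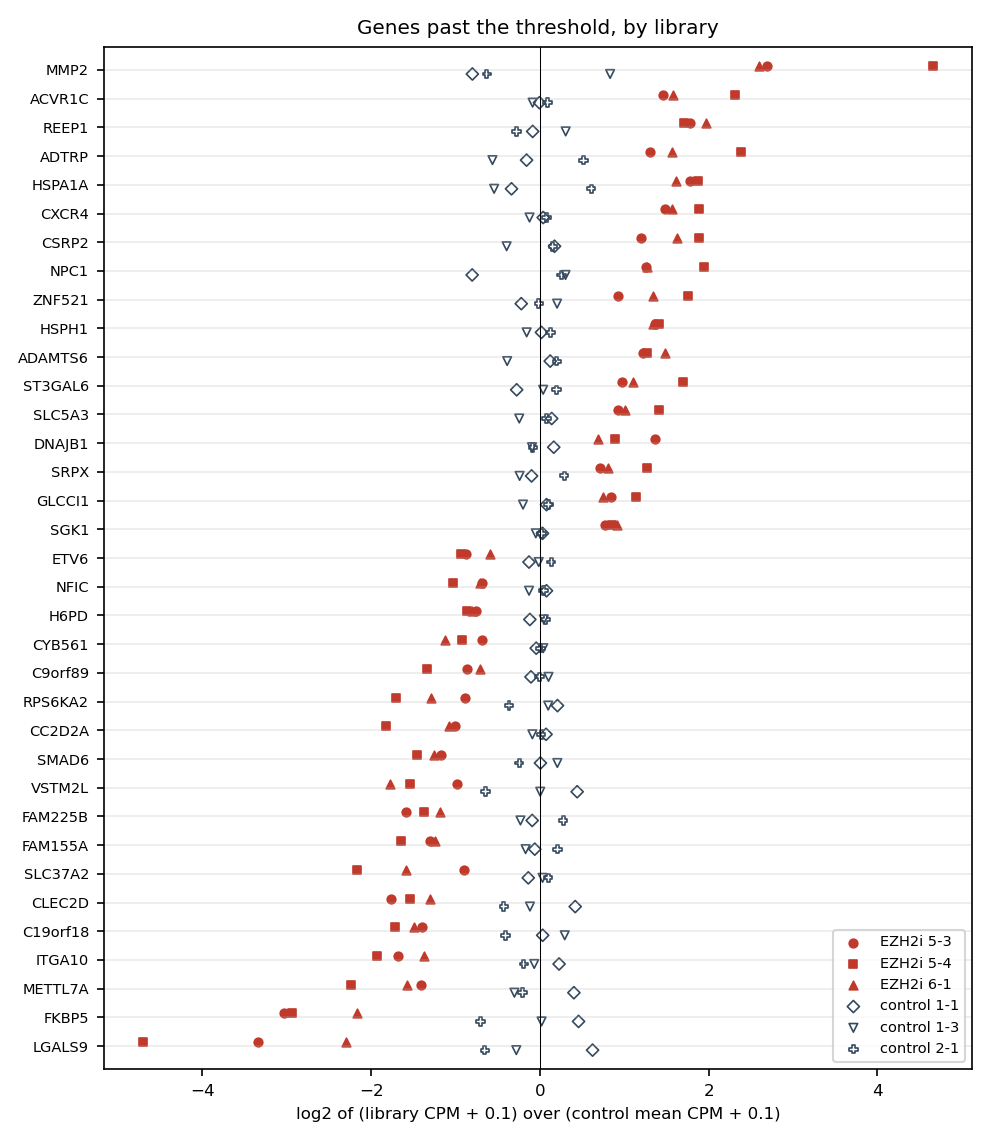
The genes past the threshold that are reported here (35 of 36), 1 to a line, ordered by fold change, with each library's log2 ratio to the control mean (0.1 CPM added to both). Filled red marks are EZH2i libraries and open marks are controls. The groups overlap for none of the 35, and control 2-1 is the control nearest to the EZH2i libraries for FKBP5 and LGALS9.

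The gene of the inhibitor's target and those of its complex did not pass the test. EZH2 had 143, 160.4 and 158 CPM in EZH2i libraries 5-3, 5-4 and 6-1, against 102, 122 and 158 CPM in controls 1-1, 1-3 and 2-1. The groups overlapped, since control 2-1 lay above EZH2i 5-3, and the log2 fold change was 0.27 (SE 0.19, adjusted p = 0.523). For its partners the log2 fold change was -0.01 for EED (SE 0.19), 0.17 for SUZ12 (SE 0.15) and 0.28 for EZH1 (SE 0.21), with adjusted p of 0.983, 0.628 and 0.545. Of 13 PRC2 genes tested, 10 had a positive and 3 a negative fold change, with a median of 0.27, and 0 passed the test. The lowest was RBBP4, a histone-binding subunit shared with other complexes. It had 44.3, 44.4 and 50.6 CPM in EZH2i libraries, against 81, 82.3 and 51.9 CPM in controls (log2 fold change -0.62, SE 0.22, adjusted p = 0.217). The partner complex PRC1, which ubiquitinates histone H2A, had 7 positive and 11 negative values among 18 genes, a median of -0.20 and 0 genes past the test. At the lower end of PRC1 was SCMH1 (log2 fold change -0.65, SE 0.22, adjusted p = 0.201).

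Genes that EZH2 is reported to repress in other systems lay on both sides of 0, and none passed the test. Of 38 such genes listed, 23 passed the expression filter and were tested, and 5 had 0 counts in all 6 libraries. Of the 23 tested, 11 had a positive and 12 a negative fold change, the median was -0.05, and 0 passed the test. The test says nothing of the listed genes that were too low to enter it. EZH2i libraries were all above the controls for 5 of the 23, against 8.44% of all genes tested, and all below for 2, against 7.86%. The gene of smallest p was close to silent in control tumours. NKX2-5, a cardiac homeobox factor, had 12, 12 and 13 counts in EZH2i libraries 5-3, 5-4 and 6-1, against 0, 1 and 1 counts in controls 1-1, 1-3 and 2-1 (adjusted p = 0.0803). GATA6, an endoderm factor, had 5.23, 7.27 and 6.6 CPM in EZH2i libraries, against 1.64, 1.48 and 2.62 CPM in controls (log2 fold change 1.69, SE 0.38, adjusted p = 0.0843). Both genes separated the groups at low levels and missed the threshold. TIMP3, an inhibitor of metalloproteinases, had the opposite order, with 2749.9, 2426 and 2076 CPM in EZH2i libraries, against 3522.5, 6147.5 and 5319.6 CPM in controls (adjusted p = 0.136).

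Of the heat shock genes, 3 rose and 0 fell. Their master regulator HSF1 binds repeats of the letters nGAAn in promoters, and their products refold damaged proteins and hold client proteins of HSP90. HSPH1 encodes HSP110, which recharges HSP70, HSPA1A encodes the inducible HSP70 itself, and DNAJB1 encodes the HSP40 partner that loads clients onto it. Promoter windows of the 3 genes that rose are printed here because they share the heat shock list and 2 of them hold the pair of inverted HSF1 recognition units, GAANNTTC, which reads the same on both strands and is set in capitals. Each window runs from 250 bases before to 50 bases after a RefSeq start (GRCh38.p14, minus strand for HSPH1 and DNAJB1, plus strand for HSPA1A). DNAJB1 has 3 starts in the table, and the one with 2 matches is shown.
HSPA1A (chr6:31815293-31815592): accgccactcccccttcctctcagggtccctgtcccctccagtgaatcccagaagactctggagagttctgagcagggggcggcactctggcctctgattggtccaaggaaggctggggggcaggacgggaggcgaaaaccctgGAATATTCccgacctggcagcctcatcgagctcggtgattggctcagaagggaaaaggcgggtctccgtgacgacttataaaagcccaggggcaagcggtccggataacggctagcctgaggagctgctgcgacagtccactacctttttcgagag
DNAJB1 (chr19:14518348-14518647): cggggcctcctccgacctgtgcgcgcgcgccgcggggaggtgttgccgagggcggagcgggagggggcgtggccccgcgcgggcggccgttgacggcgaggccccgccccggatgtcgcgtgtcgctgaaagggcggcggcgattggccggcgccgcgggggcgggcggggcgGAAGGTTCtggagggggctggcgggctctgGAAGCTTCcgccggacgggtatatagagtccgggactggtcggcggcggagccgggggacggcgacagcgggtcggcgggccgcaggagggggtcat
HSPH1 (chr13:31162339-31162638): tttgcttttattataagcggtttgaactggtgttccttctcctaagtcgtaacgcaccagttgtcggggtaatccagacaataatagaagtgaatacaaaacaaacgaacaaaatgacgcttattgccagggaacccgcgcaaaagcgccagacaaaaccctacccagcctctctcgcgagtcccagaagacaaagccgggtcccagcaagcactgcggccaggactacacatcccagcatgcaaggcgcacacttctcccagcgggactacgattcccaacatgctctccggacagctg

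The HSPA1A window holds 1 match and the DNAJB1 window 2, while the HSPH1 window holds neither GAANNTTC nor the reverse arrangement TTCNNGAA. Among 35114 windows of all genes in that table, 6.8% hold GAANNTTC, and among 14018 windows of the genes tested 5% do. Of the heat shock list, 24 of 25 tested genes matched the table, and 13 of their 37 windows hold it (35.1%). It is present in 7 of the 13 matched members with all EZH2i libraries above all controls, and in 5 of the other 11. The 15 matched genes that were higher in EZH2i tumours hold it in 5 of 27 windows (18.5%), which belong to HSPA1A, DNAJB1, CXCR4 and ST3GAL6. The arrangement TTCNNGAA is in 1 of those 27 windows (3.7%), 11 of the 37 heat shock windows (29.7%) and 6.3% of the windows of genes tested. The 13 matched genes that were lower hold GAANNTTC in 0 of 21 windows and TTCNNGAA in 0. These shares were not tested. A match describes the letters and says nothing of binding in these tumours.

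HSPH1 had 318, 329 and 314 CPM in EZH2i libraries 5-3, 5-4 and 6-1, against 125, 111 and 135 CPM in controls 1-1, 1-3 and 2-1. Its EZH2i values lay within a narrow band, 2.59-fold above controls (log2 fold change 1.37, SE 0.16, adjusted p = 0.003314). HSPA1A had 285, 304 and 254 CPM in EZH2i libraries, against 65.8, 57 and 127 CPM in controls (log2 fold change 1.75, SE 0.30, adjusted p = 0.0462). Control 2-1 was the highest control and still lay below every EZH2i library. DNAJB1 had 715, 515 and 450.3 CPM in EZH2i libraries, against 312, 261 and 263 CPM in controls (log2 fold change 1.01, SE 0.19, adjusted p = 0.0462). HSPA1B is nearly identical to HSPA1A, so how their reads were divided is uncertain. HSPA1B had 182, 157 and 171 CPM in EZH2i libraries, against 32.5, 28.2 and 88.8 CPM in controls, a log2 fold change of 1.75 with a wider error (SE 0.43, adjusted p = 0.129).

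Of the 25 heat shock genes tested, 23 had a positive and 2 a negative fold change, and the median was 0.52, beside 0.02 over all genes. The 3 genes above rose and 0 fell, while over all genes tested 0.132% rose and 0.148% fell. All EZH2i libraries were above all controls for 13 of the 25, against 8.44% of all genes tested. Among those that missed the threshold, HSPA6, a strictly stress-induced HSP70, had 30.6, 27.6 and 18.9 CPM in EZH2i libraries, against 6.99, 2.67 and 10.7 CPM in controls (log2 fold change 1.90, SE 0.41, adjusted p = 0.0803). CHORDC1, an HSP90 cofactor, had a log2 fold change of 0.93 (SE 0.22, adjusted p = 0.0944). HSPB1, the small heat shock protein HSP27, had one of 0.90 (SE 0.23, adjusted p = 0.116), and its 3 controls were nearly equal. HSP90AA1, the inducible HSP90, had 4833, 3438.5 and 3332 CPM in EZH2i libraries, against 2558, 2767 and 2792 CPM in controls (log2 fold change 0.52, SE 0.19, adjusted p = 0.223). HSPA8, the constitutive HSP70, and BAG3, a nucleotide exchange factor of HSP70, overlapped between the groups, with log2 fold changes of -0.09 (SE 0.37) and -0.31 (SE 0.46). The median log2 CPM of the list was 7.06, 7.30 and 7.15 in EZH2i libraries, against 6.25, 6.43 and 6.92 in controls.

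**Figure D3:**
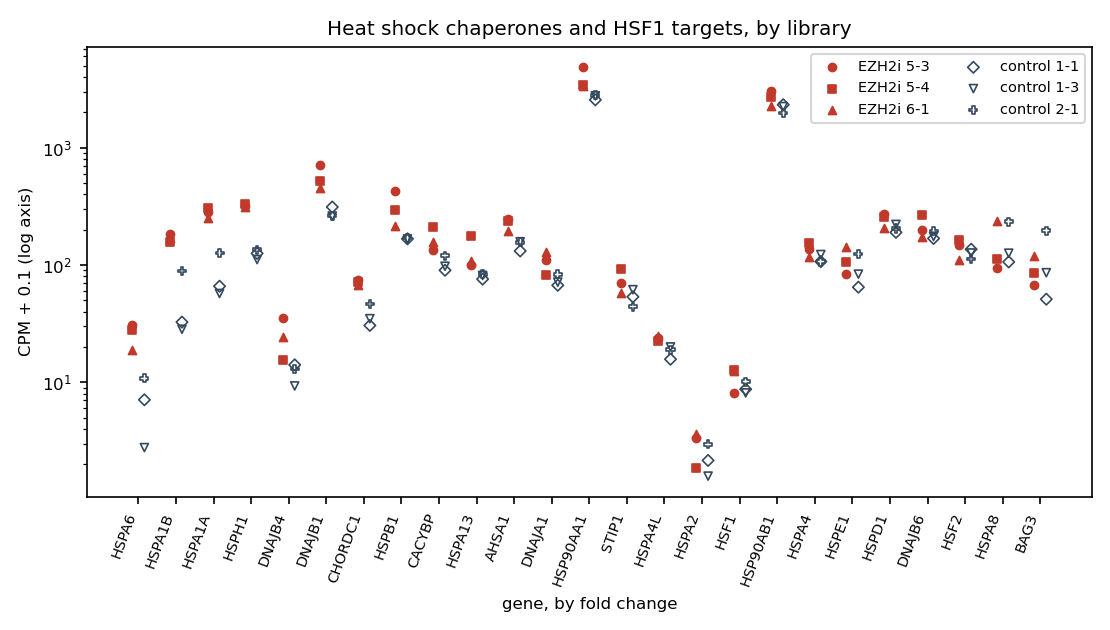
CPM plus 0.1 on a log axis for the 25 heat shock chaperones and HSF1 targets tested, ordered from the highest to the lowest fold change. Filled red marks are EZH2i libraries, left of the open marks of the controls. For 13 of the 25 genes all EZH2i libraries are above all controls (8.44% over all genes tested), and BAG3 and HSPA8 overlap.

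Among genes known to respond to glucocorticoids, members lay on both sides. FKBP5, a co-chaperone that restrains the glucocorticoid receptor and is itself induced by it, had 16.9, 18 and 30.8 CPM in EZH2i libraries 5-3, 5-4 and 6-1, against 190.3, 140.4 and 85 CPM in controls 1-1, 1-3 and 2-1. The controls differed widely among themselves, yet the lowest of them stood well above the highest EZH2i library (log2 fold change -2.67, SE 0.34, adjusted p = 0.008525). METTL7A, a methyltransferase of the endoplasmic reticulum, had 19.3, 10.8 and 17.2 CPM in EZH2i libraries, against 67.8, 41.6 and 44.5 CPM in controls (log2 fold change -1.72, SE 0.27, adjusted p = 0.0257). SGK1, a kinase induced by glucocorticoids and by osmotic stress, went the other way, with 59.9, 63.2 and 66 CPM in EZH2i libraries, against 35.8, 33.9 and 35.5 CPM in controls (log2 fold change 0.85, SE 0.15, adjusted p = 0.0462). Both sets of SGK1 values were tight. GLCCI1, named as a glucocorticoid-induced transcript but not in the list, had 104, 128 and 97.2 CPM in EZH2i libraries, against 61.3, 50.5 and 62.4 CPM in controls (log2 fold change 0.92, SE 0.16, adjusted p = 0.0445).

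Of the 25 glucocorticoid-responsive genes tested, 9 had a positive and 16 a negative fold change (median -0.28), and 1 rose and 2 fell. All EZH2i libraries were below all controls for 8 of the 25, against 7.86% of all genes tested. They were above all controls for 3, against 8.44%. KLF9, a glucocorticoid-induced repressor, had 75.6, 24.8 and 47.9 CPM in EZH2i libraries, against 179.7, 178 and 102 CPM in controls (log2 fold change -1.64, SE 0.34, adjusted p = 0.0739). TSC22D3 (GILZ), which mediates anti-inflammatory action, had 263, 94.7 and 134 CPM in EZH2i libraries, against 738, 349 and 347 CPM in controls (log2 fold change -1.55, SE 0.40, adjusted p = 0.135). MAOA, which degrades monoamines, had a log2 fold change of -1.32 (SE 0.29, adjusted p = 0.0825). These 3 separated the groups and missed the threshold. Of 6 osmotic stress genes tested, 4 had a positive and 2 a negative fold change, with a median of 0.05 beside 0.02 over all genes. SGK1 and SLC5A3 were the 2 of these 6 that rose, against 0.132% of all genes tested. SLC5A3, the sodium-coupled myo-inositol transporter, had 411, 575 and 436 CPM in EZH2i libraries, against 238, 183 and 228 CPM in controls (log2 fold change 1.13, SE 0.19, adjusted p = 0.0372). NFAT5, the factor that induces such transporters, had a log2 fold change of -0.29 (SE 0.20, adjusted p = 0.516).

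The smallest p of all belonged to an adhesion gene. ITGA10, the alpha10 subunit of a collagen-binding integrin, had 82.5, 69.4 and 102 CPM in EZH2i libraries 5-3, 5-4 and 6-1, against 310.4, 253 and 232 CPM in controls 1-1, 1-3 and 2-1. No control came near the EZH2i range, and the gene was 3.14-fold lower in EZH2i tumours (log2 fold change -1.65, SE 0.19, adjusted p = 0.003314). Among 16 integrin subunits it was the only one past the test, with 10 positive and 6 negative values and a median of 0.11. ITGA1, the alpha subunit of another collagen receptor, had 25.7, 17.5 and 41.3 CPM in EZH2i libraries, against 153, 85.5 and 64.3 CPM in controls (log2 fold change -1.85, SE 0.39, adjusted p = 0.0843). Collagen chains split evenly, with 12 positive and 12 negative values and 0 past the test.

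Of the matrix proteases, MMP2, which cleaves type IV collagen, had the largest standard error among the genes that rose. It had 14, 89 and 12 counts in EZH2i libraries, against 1, 5 and 2 counts in controls, or 5.63, 22.3 and 5.28 CPM against 0.411, 1.48 and 0.476 CPM (log2 fold change 3.78, SE 0.72, adjusted p = 0.0498). EZH2i 5-4 alone held most of its counts. Without EZH2i 5-4 the log2 fold change was 2.71 and the gene missed the threshold (edgeR adjusted p = 0.183), and without control 1-3 it was 4.55 (edgeR adjusted p = 0.182). Over the alternatives run, its adjusted p ranged from 3.91e-05 to 0.183. ADAMTS6, a secreted metalloproteinase, had 59.9, 61.9 and 71.7 CPM in EZH2i libraries, against 28, 19.6 and 29.5 CPM in controls (log2 fold change 1.33, SE 0.25, adjusted p = 0.0465), and was the only one of 20 ADAM and ADAMTS genes past the test. SRPX, a sushi-repeat protein, had 187, 275 and 199.6 CPM in EZH2i libraries, against 106, 96.5 and 139 CPM in controls (log2 fold change 0.95, SE 0.18, adjusted p = 0.0494).

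Cell surface and immune genes changed in both directions. CXCR4, the receptor of the chemokine CXCL12, had 179, 238 and 189 CPM in EZH2i libraries, against 65.8, 58.8 and 67.6 CPM in controls, which was 3.16-fold higher (log2 fold change 1.66, SE 0.28, adjusted p = 0.0432). The 2 ranges were far apart, and CXCR4 was the only one of 10 chemokine and receptor genes past the test. ST3GAL6, which caps glycans with sialic acid, had 70.4, 117 and 77 CPM in EZH2i libraries, against 29.6, 36.8 and 41.2 CPM in controls (log2 fold change 1.29, SE 0.21, adjusted p = 0.0372). Of the 12 sialyltransferases tested, 10 had a negative fold change (median -0.36), and 0 of those passed the test.

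Of 14 galectin and immune ligand genes tested, 8 had a positive and 6 a negative fold change (median 0.14). Past the threshold, 2 of the 14 fell and 0 rose, while over all genes tested 0.148% fell and 0.132% rose. LGALS9, which encodes galectin-9, had 2, 1 and 4 counts in EZH2i libraries, against 34, 25 and 24 counts in controls (log2 fold change -3.35, SE 0.66, adjusted p = 0.04997). Without EZH2i 5-4 its log2 fold change was -2.76 (edgeR adjusted p = 0.183), and without EZH2i 6-1 it was -4.12 (edgeR adjusted p = 0.0632), in both cases no longer past the threshold. Over the alternatives run, its adjusted p ranged from 7.5e-05 to 0.183. CLEC2D, a ligand of the natural killer cell receptor CD161, had 15.7, 18.3 and 21.5 CPM in EZH2i libraries, against 71.5, 49.3 and 39.8 CPM in controls (log2 fold change -1.52, SE 0.27, adjusted p = 0.0462). In both genes the libraries separated by group, and controls 1-1 and 2-1 were the highest and the lowest control. Of 8 MHC class II genes tested, 7 had a negative fold change (median -1.57) and 0 passed the test, and CD74, the invariant chain, overlapped between groups, with 122, 39.1 and 38.3 CPM in EZH2i libraries, against 120, 175 and 258 CPM in controls.

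A receptor and an inhibitor of the TGF-beta superfamily changed in opposite directions. ACVR1C, the type I receptor ALK7, had 14.9, 27.1 and 16.3 CPM in EZH2i libraries 5-3, 5-4 and 6-1, against 5.34, 5.05 and 5.71 CPM in controls 1-1, 1-3 and 2-1 (log2 fold change 1.86, SE 0.30, adjusted p = 0.0337). SMAD6, the inhibitory SMAD that BMP signalling induces, had 8.85, 7.27 and 8.36 CPM in EZH2i libraries, against 20.1, 23.2 and 16.9 CPM in controls (log2 fold change -1.30, SE 0.25, adjusted p = 0.0494). Neither gene showed any overlap. Of 17 BMP and TGF-beta feedback targets tested, 14 had a negative and 3 a positive fold change (median -0.42), and SMAD6 alone passed the test. ID1, an inhibitor of helix-loop-helix factors, had 82.1, 22.6 and 86.6 CPM in EZH2i libraries, against 179, 204 and 273 CPM in controls (log2 fold change -1.80, SE 0.47, adjusted p = 0.144). The related ID3 had a log2 fold change of -1.95 (SE 0.52, adjusted p = 0.152), and ATOH8, a BMP-induced factor, one of -2.59 (SE 0.67, adjusted p = 0.127). NOG, a secreted BMP antagonist, had 78.1, 264 and 118 CPM in EZH2i libraries, against 63.7, 51.4 and 41.9 CPM in controls (adjusted p = 0.206).

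The other genes past the threshold came from varied classes. Regulators of transcription included NFIC, a nuclear factor I protein (log2 fold change -0.81, SE 0.15), the ETS repressor ETV6 (-0.80, SE 0.15) and the zinc finger protein ZNF521 (1.39, SE 0.26). NFIC had 366, 289 and 360.2 CPM in EZH2i libraries, against 624, 541 and 609.8 CPM in controls. CSRP2, a LIM domain protein of the actin cytoskeleton, had 37, 59.4 and 49.7 CPM in EZH2i libraries, against 18.1, 12.2 and 17.9 CPM in controls (log2 fold change 1.61, SE 0.24, adjusted p = 0.0215). It was 3.05-fold higher and, as given above, kept its call in 8 of 11 fits. Other genes that rose were NPC1, which exports cholesterol from lysosomes (log2 fold change 1.51, SE 0.29), REEP1, which shapes the endoplasmic reticulum (1.84, SE 0.36), and ADTRP, a hydrolase of fatty acid esters (1.83, SE 0.31).

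ADTRP had 125, 264 and 149.96 CPM in EZH2i libraries, against 45.2, 34.1 and 72.1 CPM in controls. EZH2i 5-4 was the highest library for ADTRP and for 13 of the 17 genes that rose in all, among them ACVR1C, NPC1, ZNF521, CSRP2, ST3GAL6 and SLC5A3. Among enzymes and transporters, those that fell were H6PD, which supplies NADPH in the endoplasmic reticulum (log2 fold change -0.81, SE 0.15), CYB561, a transmembrane electron carrier (-0.90, SE 0.16), and SLC37A2, a sugar phosphate transporter (-1.48, SE 0.26). SLC37A2 had 57.1, 23.6 and 35.2 CPM in EZH2i libraries, against 96.6, 109 and 114 CPM in controls. RPS6KA2, the ribosomal S6 kinase RSK3, was also lower (log2 fold change -1.27, SE 0.25), as was CC2D2A, a protein of the ciliary transition zone (-1.28, SE 0.24). FAM155A, an accessory subunit of the NALCN sodium leak channel, had 15.3, 12 and 15.8 CPM in EZH2i libraries, against 36.2, 33.6 and 43.6 CPM in controls (log2 fold change -1.41, SE 0.21, adjusted p = 0.0215). The remaining genes that fell were C9orf89, with a log2 fold change of -0.96, VSTM2L with one of -1.39, C19orf18 with one of -1.55 and the non-coding FAM225B with one of -1.39.

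The promoter windows of the genes that fell held fewer CpG dinucleotides, at the median, than those of the genes tested. Their 21 windows held a median of 7 per 300 bases, against 21 in the 27 windows of the genes that rose and 25 in all windows of genes tested. Median GC content was 55.3% in the windows of genes that fell, 62% in those of genes that rose, 64.3% in those of genes tested and 58.7% in all windows. The glucocorticoid receptor recognition unit TGTTCT, searched on both strands, was present in 7 of the 21 windows of genes that fell (33.3%). It was present in 1 of the 27 windows of genes that rose (3.7%), in 10.1% of the windows of genes tested and in 14.8% of all windows. The 6 genes with it among those that fell were CC2D2A, CYB561, FKBP5, H6PD, ITGA10 and SMAD6, and SGK1 was the 1 among those that rose. Windows of 1 gene can overlap, and these shares were not tested.

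The genes nearest to the threshold without passing it had adjusted p between 0.0635 and 0.0717. AUP1, a lipid droplet protein of endoplasmic reticulum degradation, TPST2, a tyrosine sulfotransferase, BASP1, a membrane-bound signalling protein, CYTIP, a cytohesin-binding protein, and SOWAHC had positive fold changes. ADAMTSL5, PYGB (brain glycogen phosphorylase), the retinoid receptor RXRA, IFITM10 and CAPS2 had negative ones. CYTIP had 5.23, 11 and 10.1 CPM in EZH2i libraries, against 0.822, 0.594 and 0.714 CPM in controls (log2 fold change 3.59, SE 0.73). RXRA had 59.1, 30.3 and 43.5 CPM in EZH2i libraries, against 122, 109 and 73.3 CPM in controls (log2 fold change -1.20, SE 0.25). Both separated the groups completely.

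Broader programmes held few or no genes past the test, although in several nearly all values had 1 sign. Of 28 G2/M and mitotic genes, 27 had a positive fold change, the median was 0.59, and 0 passed the test. Their median log2 CPM was 5.82, 6.62 and 6.42 in EZH2i libraries 5-3, 5-4 and 6-1, against 5.22, 5.66 and 6.32 in controls 1-1, 1-3 and 2-1. Control 2-1 exceeded EZH2i 5-3. All EZH2i libraries were above all controls for 7 of the 28 genes, against 8.44% of all genes tested. CCNB2, a mitotic cyclin, had 33.8, 61.9 and 45.7 CPM in EZH2i libraries, against 18.9, 21.7 and 30.2 CPM in controls (log2 fold change 0.99, SE 0.25, adjusted p = 0.108). Of 24 S phase genes, 23 had a positive value (median 0.44) and 0 passed, and 11 of 12 replication-dependent histone genes did so (median 0.72), again with 0 past the test. Histone genes share near-identical copies, so their counts are uncertain.

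Of 24 hypoxia and glycolysis genes tested, 22 had a positive fold change (median 0.39) and 0 passed the test. All EZH2i libraries were above all controls for 10 of the 24, against 8.44% of all genes tested. SLC2A1, the glucose transporter GLUT1, had 558, 549.9 and 509.7 CPM in EZH2i libraries, against 349.9, 302 and 351 CPM in controls (log2 fold change 0.69, SE 0.17, adjusted p = 0.106). The 3 EZH2i values stood clear of the 3 control values. Cholesterol genes had 18 positive and 6 negative values (median 0.32), and type I interferon response genes 10 positive and 21 negative (median -0.20), with 0 past the test in either list. Of 18 epithelial genes, 16 had a negative value (median -0.58) and 0 passed. CDH1, which encodes E-cadherin, had 4.43, 0.251 and 2.64 CPM in EZH2i libraries, against 54.7, 28.5 and 4.05 CPM in controls (log2 fold change -3.68, SE 1.81, adjusted p = 0.387). Controls 1-1 and 1-3 held nearly all of it.

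Human marker genes of other cell types took small shares of the counts. The host is a mouse, the genes are human symbols, and how mouse reads were handled is not given in the sources used here, so these shares do not measure host cells. Macrophage markers took 0.00386% to 0.0057% of the counts in EZH2i libraries and 0.00342% to 0.00436% in controls, with 1 of 13 at 0 in all 6 libraries. Neutrophil markers took 0.000181% to 0.000274% in EZH2i libraries and 0.000146% to 0.000242% in controls, with 6 of 8 at 0 throughout. Fibroblast markers took 0.0634% to 0.0992% in EZH2i libraries and 0.0452% to 0.1% in controls. Skeletal muscle markers took 0.00637% to 0.0103% in EZH2i libraries, against 0.0239%, 0.00892% and 0.00782% in controls 1-1, 1-3 and 2-1. The ranges of each of these lists overlapped between the groups, and their part in the results was not tested.

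**Figure D4:**
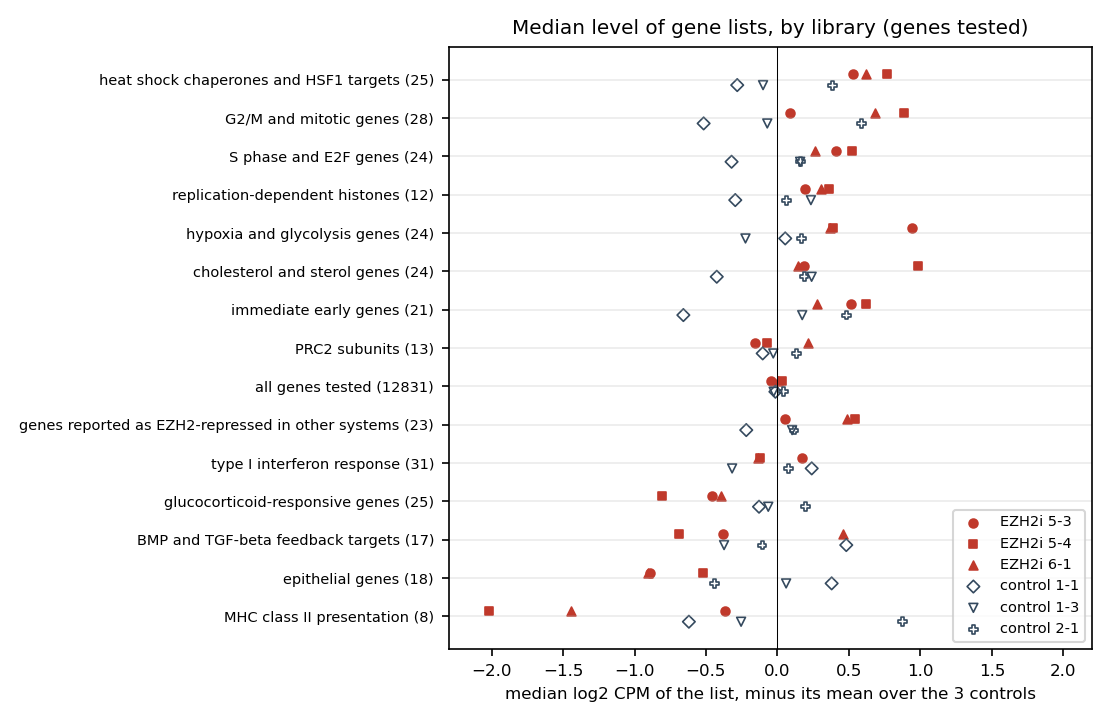
For each gene list, with the number of genes tested in parentheses, the median log2 CPM of each library minus the mean of that median over the 3 controls. Filled red marks are EZH2i libraries and open marks are controls. The EZH2i libraries lie above all controls for heat shock, S phase and hypoxia genes, among others, and below all controls for glucocorticoid-responsive and epithelial genes, while for G2/M genes control 2-1 lies above EZH2i 5-3.

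The same inhibitor was also given on top of the p38 inhibitor, in libraries that share none with the comparison above. Adding it there, combination against p38i, gave 0 genes past the threshold by edgeR (0%), 0 by DESeq2 and 0 by limma-voom. At an unadjusted p under 0.05 there were 549 genes, which is 4.28% of those tested, while EZH2i against control had 1927. The p38i group had only 2 columns, 1 of which the descriptions give to 2 samples. Of the 36 genes that differed with the inhibitor alone, 9 had the same sign in combination against p38i and 27 the opposite sign. The 17 higher genes had a median log2 fold change of -0.36 there, with 5 positive, and the 19 lower genes one of 0.31, with 4 negative, beside 0.01 over all genes. Of the 36, 6 had an unadjusted p under 0.05 in that comparison, and 0 of those kept the sign.

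DNAJB1 had 379, 325 and 356 CPM in combination libraries 8-1, 9-1 and 9-2, against 659 CPM in p38i 3-3 and 484 CPM in the shared p38i column. All 3 combination values lay below both p38i values (log2 fold change -0.69, SE 0.20, unadjusted p = 0.003947). HSPH1 had 195, 209 and 235 CPM in combination libraries, against 307 and 215 CPM in p38i libraries (log2 fold change -0.29, SE 0.18). FKBP5 had 35.3, 47 and 49.1 CPM in combination libraries, against 20.6 and 38.9 CPM in p38i libraries (log2 fold change 0.55, SE 0.36), and ITGA10 had 85.3, 114.6 and 84 CPM, against 80 and 69.2 CPM (log2 fold change 0.35, SE 0.21). For these 4 genes the mean level in p38i libraries lay nearer to the EZH2i mean than to the control mean. Against the same 3 controls, which all 3 treated groups share, the 17 higher genes had log2 fold changes of 0.49 to 1.81 in p38i tumours (median 1.31) and of 0.34 to 1.56 in combination tumours (median 1.05). The 19 lower genes had -2.33 to -0.40 in p38i tumours (median -1.39) and -2.05 to -0.32 in combination tumours (median -0.91). These genes were picked with the same controls, which favours the same direction in any group set against them. The shared direction, and the nearness of p38i means to EZH2i means, are therefore no independent support.

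The heat shock list had 7 positive and 18 negative values in combination against p38i, with a median of -0.20. Its median log2 CPM was 7.22 in p38i 3-3 and 7.08 in the shared p38i column. It was 6.88, 7.19 and 7.04 in combination 8-1, 9-1 and 9-2, beside 6.25, 6.43 and 6.92 in controls 1-1, 1-3 and 2-1. The glucocorticoid-responsive list had 23 positive and 2 negative values in combination against p38i, with a median of 0.32. The difference between the 2 effects of the EZH2 inhibitor, with p38i and alone, passed the threshold for 8 genes (0.0623% of those tested), and all 8 were among the 36. They were HSPH1, DNAJB1, ACVR1C, CSRP2 and ST3GAL6, which rose with the inhibitor alone, and ITGA10, FKBP5 and FAM155A, which fell. Since this difference contains the comparison that picked the 36 genes, it is no independent test of them. The count was 0 without EZH2i 5-4, combination 8-1, combination 9-1, p38i 3-3 or control 1-3, 1 without the shared p38i column, 4 without combination 9-2, and 6 to 11 when 1 of the other 4 libraries was left out.

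**Figure D5:**
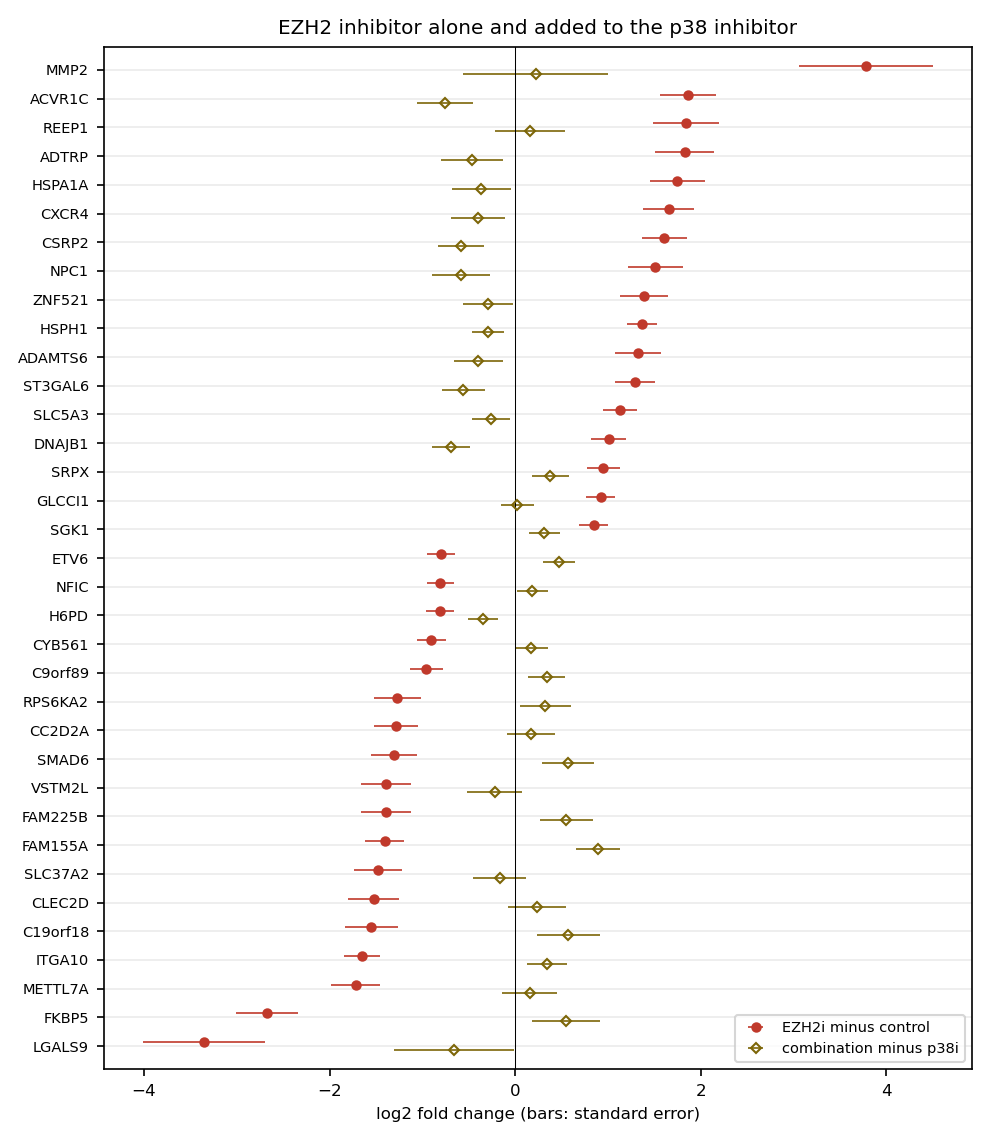
Log2 fold changes with their standard errors for 35 of the 36 genes, EZH2i minus control (filled red) above combination minus p38i (open diamonds) on each line. For 26 of the 35 genes drawn, the second value lies on the other side of 0.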

How the data were processed

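Raw counts per gene symbol were deposited by the authors in 1 table of 12 value columns. Per the submitters' processing notes, Trim Galore 0.5.0, STAR 2.6.0 and the build hg19 were used. The counting program, its annotation and strand setting, and any removal of mouse reads are not given in the sources used here. The labels' protocols name both a SMARTer mRNA kit and QuantSeq, which reads 3′ ends, so levels of different genes are not compared. Libraries started from 1.3 µg of RNA. Columns were joined to samples by the number in each description. 1 column is named by 2 p38i samples and was kept as a p38i library, and 1 column that no sample names was not used.

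The 11 columns were fitted together in edgeR 4.0.16 (R 4.3.3) with 1 term per group, after filterByExpr (minimum count 10, total 15) and TMM scaling. The quasi-likelihood F test with its robust option was two-sided, and p-values were adjusted by Benjamini-Hochberg over 12831 genes, threshold 0.05. Another 3 lines named no gene and held 0 counts. The biological coefficient of variation was 0.218. Each SE is the absolute log2 fold change divided by the square root of the F statistic, and was not fitted separately. CPM use TMM-scaled totals. The code was tested on simulated data. Alternatives were other scaling, filters, DESeq2 1.42.0, limma-voom (limma 3.58.1), fewer groups and leaving out each library.

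Genes named are those past the threshold (1 of the 36 is not reported here), PRC2 core genes, up to 4 genes of smallest p in lists described, extremes of families and the 10 nearest misses. The comparison and the 43 gene lists were chosen with earlier results of these data known. Replicates were compared as pairs, and none differed by as little as counting noise. Promoters are RefSeq windows matched by symbol for 28 of the 36 genes. Intervals are not given for CPM, and PCR copies were not removed by molecular identifiers as far as the sources say.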

Additional observations from a re-analysis of the deposited data

Results flagged for a closer look

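For 8 genes the effect of the EZH2 inhibitor in the presence of the p38 inhibitor differed from its effect alone, by the interaction term of the edgeR quasi-likelihood fit with Benjamini-Hochberg adjustment over all genes. The difference, with p38i minus alone, was 2.30 on the log2 scale for FAM155A (adjusted p = 0.0237), 2.00 for ITGA10 (adjusted p = 0.0237) and 3.22 for FKBP5 (adjusted p = 0.0376). It was -1.66 for HSPH1 (adjusted p = 0.0237), -2.62 for ACVR1C, -2.19 for CSRP2 and -1.70 for DNAJB1 (adjusted p = 0.0376 each), and -1.85 for ST3GAL6 (adjusted p = 0.0478). Each of the 8 had opposite signs in combination against p38i and in EZH2i against control. All were already past the threshold in EZH2i against control, which forms part of the difference.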

How the results depend on the processing

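The 36 genes past the threshold in EZH2i against control became 21 with library totals alone (13 higher and 8 lower, against 17 and 19), 298 with no filter beyond 1 count in any library (152 higher and 146 lower, 35 of the 36 among them), 228 by DESeq2 (106 higher and 122 lower, all 36 among them), 16 by limma-voom, 17 with the robust option off (10 higher and 7 lower), 4 in a fit of the EZH2i and control libraries alone and 7 with the combination libraries added. It was 30 with DESeq2 size factors and 29 with a minimum mean of 5 CPM. Leaving out each library in turn gave 2 to 144. The cause of these shifts was not tested. ITGA10, HSPH1 and FKBP5 stayed past the threshold under all 9 other settings. Over the 36 genes and all settings, 301 of 718 values kept their side of the threshold, 417 lost the call and 0 reversed. Combination against p38i had 1 gene with no filter and 0 under the other settings run, leaving out each library included. The difference between the 2 effects had 102 genes with no filter, 102 by DESeq2, 3 by limma-voom and 4 with the robust option off, and 0 to 11 with each library left out. Of 312 list medians compared, 34 changed sign and 8 moved by more than the spread. The median of all genes was 0.02 with TMM, 0.0046 with DESeq2 size factors and 0.05 with library totals. The MALAT1 difference was -0.81 to -1.49 percentage points with 1 library left out, against -1.24. No paired analysis was possible because the labels give the groups no shared replicate numbers. At 1 count per 0.238 to 0.44 CPM in the EZH2i and control libraries, genes such as LGALS9, MMP2 and NKX2-5 rest on few counts.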
